A study of Mus musculus with 12 samples.

Results

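Malat1, Neat1, Gas5, Snhg1, Snhg8 and Snhg12 are long noncoding RNAs that many cultured cells make in quantity. They were found by symbol from the Ensembl identifiers of the deposited count table, where they are 6 of 55414 identifiers, and all 6 were among the 14435 genes with enough counts to be tested. The samples were 12 RNA libraries of the 3T3-L1 line, mouse preadipocytes that turn into fat cells under hormones. The cells were made to overexpress an FHL2-GFP or a CTRL-GFP construct, and each kind was sampled as post-confluent cells on day 0 and after 2 days of induction, which gives 4 groups of 3 libraries. FHL2 is a cofactor of transcription built of LIM domains, and the study asked about its part in early adipogenesis. All day 2 cells had received 170 nM insulin, 1 uM dexamethasone and 0.5 mM isobutylmethylxanthine in 10% serum, and day 0 cells are described as the starting point of that treatment. The labels class the line as mesenchymal stem cells. The promoter of the constructs, the clonality of the lines and the origin of the 3 libraries of a group (separate cultures or not) were not given in the sources used here. P-values therefore measure the spread between these libraries, which may be technical.

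Malat1 is a nuclear RNA that collects in nuclear speckles, the bodies that hold splicing factors. Neat1 is the scaffold around which paraspeckles form, and it is made from a promoter close to Malat1 as a short form and a much longer form with the same start. Gas5, Snhg1, Snhg8 and Snhg12 are small nucleolar RNA (snoRNA) host genes, in which snoRNAs are cut from the introns and guide chemical modification of ribosomal RNA, while the joined exons leave the nucleus. Exons of Gas5 and several other hosts carry stop codons early in the transcript and are removed by nonsense-mediated decay, which needs translation, so such hosts build up when translation stops and cells stop growing. The start of many host transcripts is a run of C and T, as in messenger RNAs for ribosomal proteins, which ties their translation to growth signals.

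The starts of 5 of the 6 genes are shown because such a run is known from many host genes. Each line gives 120 bases, from 80 before the annotated start to 39 after its first base, from RefSeq on GRCm38.p6, with the longest run of C and T that touches the 5 bases before to 10 bases after the start in capitals. For Gas5, the start near which 14 of its 25 GENCODE M21 transcripts begin is shown.
Malat1, chr19:5802633-5802752, minus strand: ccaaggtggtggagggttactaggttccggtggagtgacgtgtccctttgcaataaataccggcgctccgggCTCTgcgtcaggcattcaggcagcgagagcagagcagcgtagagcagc
Gas5, chr1:161035086-161035205, plus strand: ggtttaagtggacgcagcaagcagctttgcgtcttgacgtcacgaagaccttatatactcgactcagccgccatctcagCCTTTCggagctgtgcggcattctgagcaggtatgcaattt
Snhg1, chr19:8723407-8723526, plus strand: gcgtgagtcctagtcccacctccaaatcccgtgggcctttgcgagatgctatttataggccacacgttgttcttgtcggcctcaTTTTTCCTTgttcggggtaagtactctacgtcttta
Snhg8, chr3:123508297-123508416, minus strand: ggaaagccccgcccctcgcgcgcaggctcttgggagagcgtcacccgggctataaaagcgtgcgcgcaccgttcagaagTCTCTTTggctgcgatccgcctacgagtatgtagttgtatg
Snhg12, chr4:132308598-132308717, plus strand: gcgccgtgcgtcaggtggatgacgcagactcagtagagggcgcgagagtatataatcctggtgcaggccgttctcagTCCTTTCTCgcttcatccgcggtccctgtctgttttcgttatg

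The run was 6 bases long in Gas5, 7 in Snhg8 and 9 in both Snhg1 and Snhg12, against 4 in Malat1. In Gas5, Snhg8 and Snhg12 it covers the first base of the transcript. In Snhg1 the run begins 4 bases after that base, and in Malat1 it ends 5 bases before it. RefSeq holds another Gas5 start upstream, near which 1 of the 25 transcripts begins, and there the run was 3 bases long and none of the motifs below was found. Of 32851 mouse promoter windows in the same table, 25.3% had a run of at least 6 bases, 16.9% of at least 7, 8.09% of at least 9 and 57.5% of at least 4. Isobutylmethylxanthine raises cyclic AMP, whose response element is tgacgtca, so the window of 300 bases around each start was searched for it on both strands. Gas5 at the start shown holds it once, beginning 46 bases before the start, as do 1.79% of all windows. The shorter core TGACG, which is part of that element, was found in Malat1, Gas5, Snhg8 and Snhg12 and in 20.8% of all windows. TATAAA was found in Snhg8 in the direction of the transcript, 30 bases before the start. In Snhg1 it was found on the opposite strand only, 29 bases before the start. On either strand 13.6% of all windows held it, and the shares of the other motifs also count both strands. CACGTG was found in none of the 5 windows and in 7.15% of all. These matches describe letters, and the data hold no measurement of binding.

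The libraries held 10047708 to 21872139 counts, and levels below are CPM, counts scaled to a common library total with TMM factors. Fhl2 itself was at 67.4, 58.8 and 62.0 CPM in the FHL2 libraries and at 58.9, 61.0 and 63.6 CPM in the control libraries of day 0, and at 18.7, 9.92 and 22.6 against 13.9, 14.2 and 21.0 CPM at day 2. It did not pass the test between lines on either day, with a log2 difference of 0.04 ± 0.23 (SE) at day 0 and 0.07 ± 0.25 at day 2, so every direction drawn between lines below is between libraries labelled FHL2-GFP and CTRL-GFP. Preadipocyte and fibroblast markers summed to between 20917 and 23878 CPM in all libraries. The 8 adipocyte markers summed to between 156 and 210.0 CPM at day 0, when Adipoq, Plin1 and Cidec were at 0, and to between 260.1 and 422 CPM at day 2. Markers of macrophages and blood, endothelium, epithelium and muscle summed to at most 5.13 CPM each in any library. Between 17977 and 18811 genes had counts in the day 0 libraries and between 12689 and 16131 in the day 2 libraries, with the fewest in control replicate 3 and FHL2 replicates 1 and 2.

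The day comparisons followed the base composition of transcripts, which bears on every member. Among all tested genes sorted into 5 classes by GC content, the median log2 change from day 0 to day 2 was -1.79 in the lowest class and 0.73 in the highest in the control line, and -1.63 and 0.69 in the FHL2 line. By the longest GENCODE M21 transcript, Malat1 (42.5% GC), Gas5 (42.3%) and Snhg1 (40.5%) fall in the lowest class. Neat1 (47.3%), Snhg8 (45.7%) and Snhg12 (47.6%) fall in the next, whose median changes were -0.76 and -0.73. Each day difference of the 6 RNAs is therefore given also from a fit with a GC correction, which adds to each library an offset following GC content, and from one that follows transcript length as well. Values of other genes are without correction unless stated, with the calls that the GC correction ended given beside them. Whether the trend lies in the RNA or in the libraries was not tested.

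**Figure D1:**
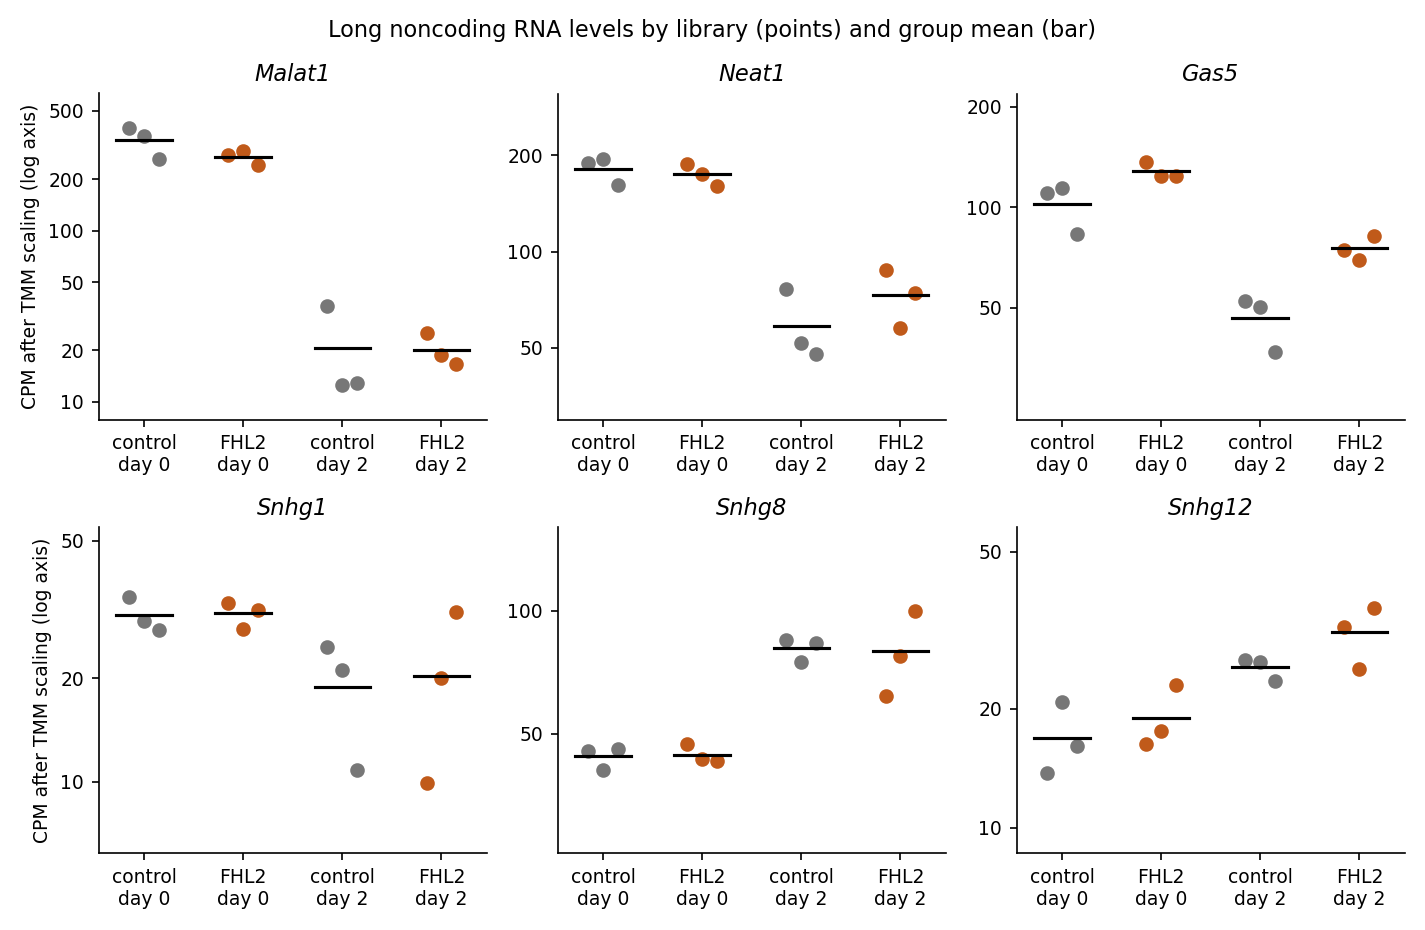
CPM after TMM scaling (log axis) of each of the 6 RNAs in 4 groups of 3 libraries, with a point per library and a bar at the group mean. Malat1, Neat1 and Gas5 are lower in every day 2 library than in any day 0 library of the same line, while Snhg8 and Snhg12 are higher.

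Malat1, the speckle RNA, showed the steepest drop of the 6. It stood at 395, 358 and 261 CPM in the 3 control libraries of day 0 and at 275, 293 and 243 CPM in the 3 FHL2 libraries. At day 2 it was at 36.4, 12.6 and 12.9 CPM in control and at 25.0, 18.6 and 16.5 CPM in FHL2 libraries. All day 0 libraries lay far above all day 2 libraries in both lines, and control replicate 1 was the highest of its group on both days. In raw counts this is 4255 to 8739 at day 0 and 119 to 517 at day 2. Malat1 fell 16.2-fold in the control line, a log2 change of -4.02 ± 0.34 (SE, n = 3 and 3; edgeR adjusted p = 2.63e-07), and 13.5-fold in the FHL2 line, a change of -3.75 ± 0.34 (edgeR adjusted p = 4.80e-07). Of the 14435 genes tested, 483 in the control line and 549 in the FHL2 line had a lower log2 change than Malat1, and 269 and 281 of these were among the 2882 genes of its own GC class. The log2 change was -2.54 and -2.39 with the GC correction and -2.35 and -2.13 with length added, all past the test, so the size of the drop depended on this choice while its direction and call did not. In RNA from whole cultures, fewer cells making a transcript and less of it per cell cannot be told apart. The library kit selects polyadenylated RNA, and Malat1 and the long form of Neat1 end in a triple helix in place of a poly(A) tail, so how well they are captured may vary, which was not tested.

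Neat1, the paraspeckle RNA, moved the same way by less. Its levels at day 0 were 189, 195 and 162 CPM in control and 188, 175 and 160.1 CPM in FHL2 libraries. At day 2 they were 76.5, 51.7 and 47.7 CPM in control and 87.7, 57.6 and 74.2 CPM in FHL2 libraries. Every day 2 library was below every day 0 library. Neat1 fell 3.09-fold in the control line, a log2 change of -1.63 ± 0.18 (edgeR adjusted p = 3.06e-06), and 2.38-fold in the FHL2 line, a change of -1.25 ± 0.18 (edgeR adjusted p = 3.17e-05). Corrected for GC content, the log2 change was -1.19 and -0.85, both past the test. With length added it was -0.63 in the control line, still past the test (edgeR adjusted p = 0.00943), and -0.17 in the FHL2 line, which did not pass (edgeR adjusted p = 0.461). The longest Neat1 transcript has 20771 bases, longer than that of 99.9% of tested genes, and the short form 3004. Counts per gene do not separate the forms. The corrections above used the GC content and length of the longest form. With the mean GC content of all transcripts, 51.5% for Neat1, the log2 change was -1.76 in control and -1.37 in FHL2, both past the test.

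The 2 nuclear RNAs are neighbours on chromosome 19, and the ratio of their counts within a library is free of library scaling. Malat1 counts divided by Neat1 counts gave 1.46 to 2.09 in the 6 day 0 libraries and 0.223 to 0.475 in the 6 day 2 libraries. No day 2 library reached the day 0 range. This ratio is not free of the GC trend, since Malat1 falls in the lowest GC class and Neat1 in the next. With the GC correction Malat1 and Neat1 changed by -2.54 and -1.19 in control, and by -2.39 and -0.85 in FHL2. With the mean GC content of all transcripts they changed by -2.03 and -1.76, and by -1.89 and -1.37. Frmd8, which lies beside them, moved the other way in the uncorrected fit, with a log2 change of 0.56 in control and 0.69 in FHL2, both past the test. Its changes after the GC correction were -0.11 and 0.04, neither past the test.

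**Figure D2:**
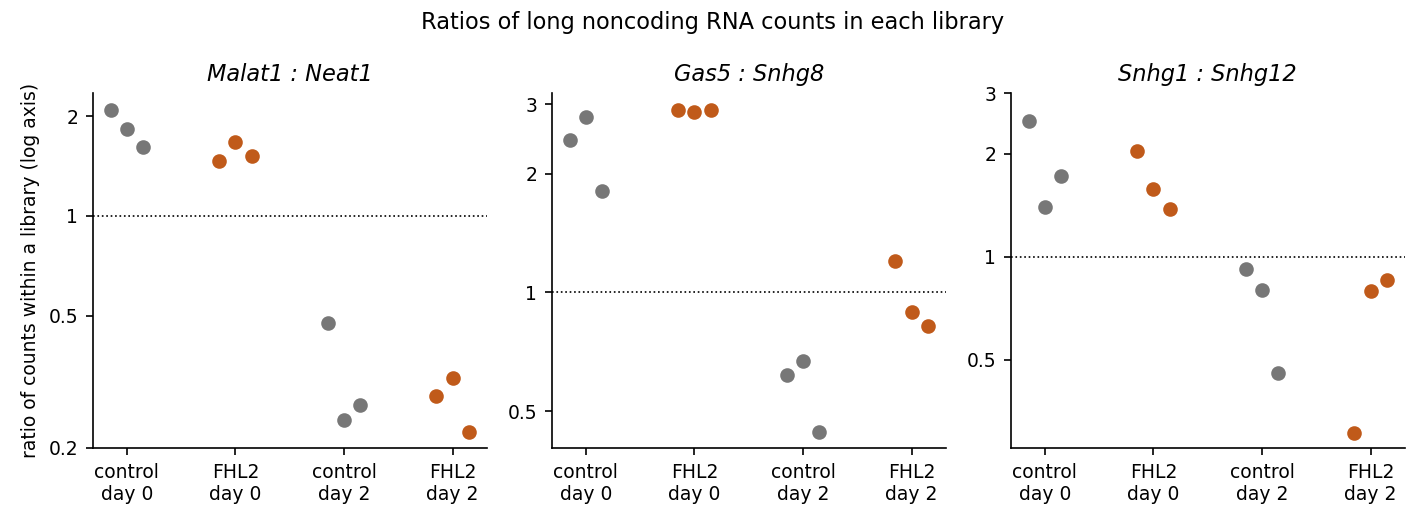
Ratio of counts within each library (log axis, dotted line at equal counts) for Malat1 to Neat1, Gas5 to Snhg8 and Snhg1 to Snhg12, with a point per library in the 4 groups. The day 2 points of all 3 ratios lie below the day 0 points of the same line. In each ratio the first RNA falls in the lowest GC class and the second in the next.

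Gas5, the host of 9 annotated snoRNA genes, was lower at day 2 in both lines before correction. It was at 110.5, 114 and 83.1 CPM in control and at 137, 124 and 124 CPM in FHL2 libraries at day 0. At day 2 it was at 52.3, 50.3 and 36.9 CPM in control and at 74.2, 69.3 and 82.1 CPM in FHL2 libraries. The days did not overlap within a line. Without correction Gas5 fell 2.198-fold in the control line, a log2 change of -1.14 ± 0.15 (edgeR adjusted p = 1.69e-05), and 1.71-fold in the FHL2 line, a change of -0.77 ± 0.15 (edgeR adjusted p = 0.000474). The direction turned with the GC correction, to a log2 change of 0.40 in the control line (edgeR adjusted p = 0.00397) and 0.63 in the FHL2 line (edgeR adjusted p = 9.58e-05). It was 0.25 and 0.42 with length added. Gas5 was thus lower at day 2 relative to all genes and higher relative to genes of like GC content.

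Snhg1, the host of 8 annotated snoRNA genes, did not pass the test with TMM scaling and no correction. Its levels were 34.3, 29.2 and 27.7 CPM in control and 33.1, 27.7 and 31.6 CPM in FHL2 libraries at day 0. At day 2 they were 24.6, 21.1 and 10.8 CPM in control and 9.92, 20.05 and 31.0 CPM in FHL2 libraries. The control days did not overlap, but the FHL2 library with 31.0 CPM lay within the day 0 range while that with 9.92 CPM was the lowest of all 12. The log2 change was -0.68 ± 0.34 in control (edgeR adjusted p = 0.105) and -0.60 ± 0.34 in FHL2 libraries (edgeR adjusted p = 0.152). Other fits without GC correction did call it lower: library totals alone gave -0.93 and -0.85 (edgeR adjusted p = 0.0284 and 0.0426), and no filter on low counts gave -0.71 and -0.62 (edgeR adjusted p = 0.0114 and 0.0285). The GC correction turned it to 1.20 and 1.14, both past the test. Without the 3 day 2 libraries with the fewest detected genes the uncorrected change was -0.36 in control (edgeR adjusted p = 0.0449) and 0.02 in FHL2 libraries, where 1 day 2 library is then left.

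Snhg8, the host of 1 annotated snoRNA gene, rose in both lines. It was at 45.3, 40.9 and 46.0 CPM in control and at 47.2, 43.3 and 42.8 CPM in FHL2 libraries at day 0. At day 2 it reached 84.6, 75.0 and 83.3 CPM in control and 61.9, 77.5 and 99.98 CPM in FHL2 libraries. The days did not overlap, and the FHL2 libraries of day 2 were the most spread, with an SD of 19.1 CPM against 5.24 in control. Snhg8 rose 1.84-fold in the control line, with a log2 change of 0.88 ± 0.15 (edgeR adjusted p = 0.000208), and 1.80-fold in the FHL2 line, with 0.85 ± 0.15 (edgeR adjusted p = 0.000289). The log2 change was 1.62 and 1.52 corrected for GC content, and 1.16 and 0.97 with length added, all past the test.

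Snhg12, the host of 4 annotated snoRNA genes, also rose, by less. At day 0 it was at 13.8, 20.8 and 16.1 CPM in control and at 16.3, 17.6 and 23.0 CPM in FHL2 libraries. At day 2 it was at 26.7, 26.3 and 23.6 CPM in control and at 32.3, 25.3 and 36.2 CPM in FHL2 libraries. The days did not overlap, with a gap of under 3 CPM in each line. The log2 change was 0.60 ± 0.21 in control, a 1.51-fold rise (edgeR adjusted p = 0.0272), and 0.72 ± 0.21 in FHL2, a 1.65-fold rise (edgeR adjusted p = 0.00961). Scaling by library totals alone took the change to 0.34 and 0.47 and below the test in both lines. This scaling moves the median log2 change of all genes from -0.14 to -0.39 in control and from -0.11 to -0.36 in FHL2 libraries. Snhg12 changed by 0.98 and 1.07 with the GC correction, past the test.

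Between days, 2 of the 6 RNAs were therefore called higher and 3 lower in each line. Of all genes tested, 57.1% were called in the control line (26.3% higher and 30.8% lower) and 56.0% in the FHL2 line (25.8% higher and 30.2% lower), so calls of either direction were common in the table. Library totals gave 2815 higher and 5292 lower in the control line in place of 3799 and 4447, and 2744 and 5155 in the FHL2 line in place of 3730 and 4357, and 1 member higher and 4 lower in each. The GC correction gave 4 members higher and 2 lower in both lines, among 3148 higher and 2519 lower genes in control and 3055 and 2576 in FHL2. In the control line all 6 members had no overlap between days, as did 68.7% of genes. In the FHL2 line the same held for all but Snhg1, and for 66.2% of genes.

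**Figure D3:**
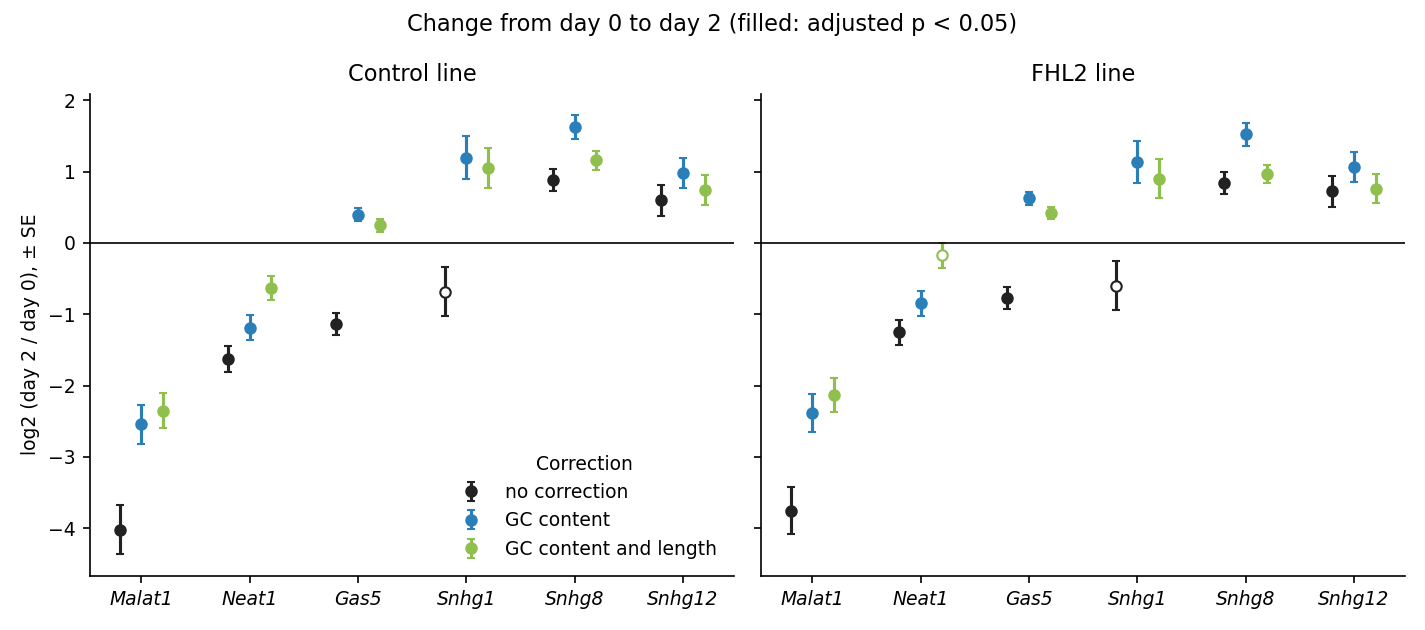
Log2 change from day 0 to day 2 (± SE) for each RNA in the control line and the FHL2 line, without correction (black), with correction for GC content (blue) and for GC content and length (green), filled where the adjusted p is under 0.05. Malat1 stays lower under all 3 fits, Gas5 and Snhg1 cross 0, and Snhg8 and Snhg12 stay higher.

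Between the lines, Gas5 was the member that differed. At day 2 it was at 69.3 to 82.1 CPM in libraries labelled FHL2-GFP and at 36.9 to 52.3 CPM in those labelled CTRL-GFP, with no overlap. Gas5 was 1.61-fold higher in the FHL2 libraries, a log2 difference of 0.69 ± 0.15 with a 95% interval of 0.37 to 1.01 (edgeR adjusted p = 0.0329). It was 1 of 6 members called, where 2.07% of all genes were called (0.720% higher and 1.35% lower), and 14.7% of genes had no overlap between the lines. With the GC correction the difference was 0.63 (edgeR adjusted p = 0.00451), and with length added 0.54 (edgeR adjusted p = 0.00668). The call ended in a fit of the day 2 libraries alone, at 0.69 (edgeR adjusted p = 0.191), and in 9 of 12 fits that left out 1 library, with adjusted p between 0.0503 and 0.0840 and log2 differences of 0.52 to 0.79 over all 12.

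At day 0 the Gas5 libraries did not overlap either, at 124 to 137 CPM in FHL2 and 83.1 to 114 CPM in control, as for 21.6% of genes. The log2 difference was 0.32 ± 0.15, with an edgeR adjusted p of 1, and none of the 6 members was called at day 0, where 0.0485% of genes were (0.0208% higher and 0.0277% lower). The change of this difference between days was 0.36 ± 0.21 and did not pass the test (edgeR adjusted p = 0.788), so a larger difference at day 2 than at day 0 was not shown. No member passed the test of that change, which 0.00693% of genes passed.

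The other 5 members did not pass the test between lines on either day. Malat1 differed by -0.32 at day 0, with a 95% interval of -0.95 to 0.30, and by -0.06 at day 2, with an interval of -0.75 to 0.64. Neat1 differed by -0.06 and by 0.32 with intervals of -0.43 to 0.31 and -0.06 to 0.70. Snhg8 differed by 0.01 at day 0 and by -0.02 at day 2, and its intervals of -0.31 to 0.34 and -0.34 to 0.31 were the narrowest of the 5. Snhg1, with intervals of -0.70 to 0.74 and -0.63 to 0.84, had the least certain values, and differences in either direction remain possible. Snhg12 differed by 0.17 and 0.29 with intervals of -0.29 to 0.62 and -0.16 to 0.75.

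**Figure D4:**
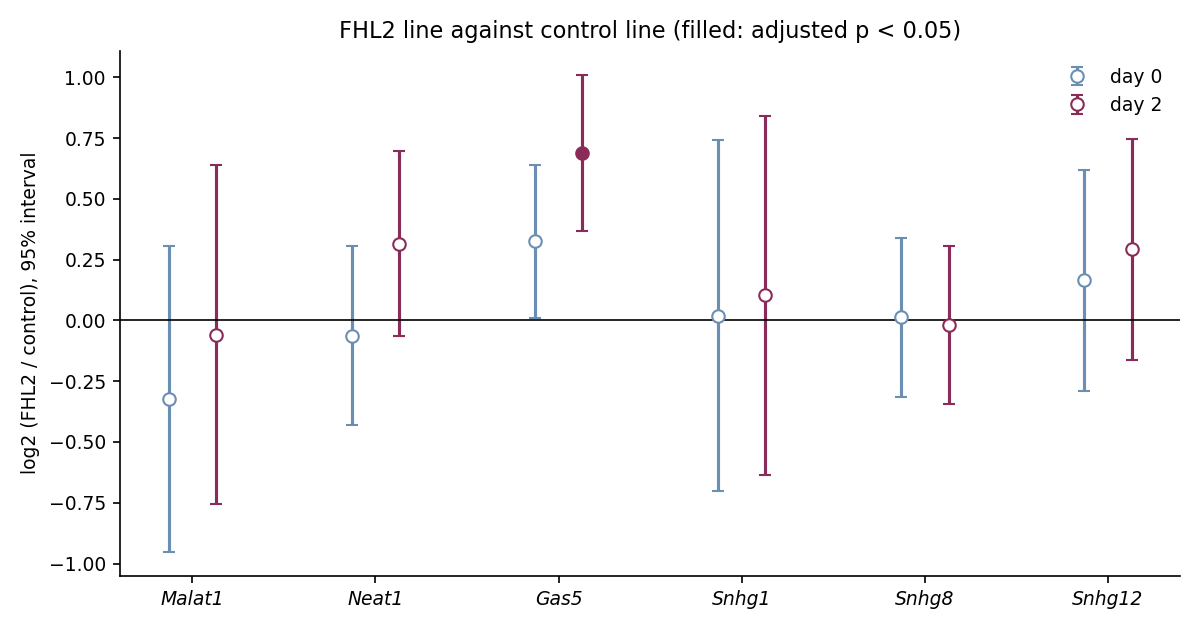
Log2 difference between FHL2 and control libraries with its 95% interval for each RNA at day 0 and at day 2, filled where the adjusted p is under 0.05. Only Gas5 at day 2, at 0.69, is filled, and the intervals of Malat1 and Snhg1 are the widest.

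Levels of different genes can be set side by side per kilobase of a chosen length, here that of the longest transcript. It has 776 bases for Snhg8, 2556 for Gas5 and 2728 for Snhg1. Gas5 has 25 annotated transcripts and Snhg1 18, and the order with shorter forms of the hosts was not computed. In CPM not divided by length, mean Gas5 was above Snhg8 at day 0 (102 against 44.0 in control, 128 against 44.4 in FHL2) and below it at day 2. Per kilobase of the longest transcript, Snhg8 was first in all 4 groups. It was at 56.8 ± 3.60 CPM per kilobase in control and 57.3 ± 3.16 in FHL2 libraries at day 0, and at 104 ± 6.75 and 103 ± 24.6 at day 2 (SD, n = 3). In control libraries of day 0, Malat1 (48.4 ± 9.92) and Gas5 (40.1 ± 6.58) came next, and the ranges of Snhg8, Malat1 and Gas5 overlapped in that order. Snhg1 (11.1 ± 1.28), Snhg12 (10.98 ± 2.34) and Neat1 (8.76 ± 0.848) followed, each overlapping the next. In FHL2 libraries of day 0 the order was Snhg8, Gas5 (50.2 ± 2.92), Malat1 (38.7 ± 3.65), Snhg12 (12.3 ± 2.31), Snhg1 (11.3 ± 1.03) and Neat1 (8.39 ± 0.662), and of these neighbours Snhg12 and Snhg1 overlapped.

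At day 2 Malat1 stood next to last in control and last in FHL2 libraries. In control libraries Gas5 (18.2 ± 3.28 CPM per kilobase) and Snhg12 (16.6 ± 1.09) overlapped, and Snhg1 (6.91 ± 2.63), Malat1 (2.95 ± 1.95) and Neat1 (2.82 ± 0.751) came last, with Snhg1 overlapping Malat1 and Malat1 overlapping Neat1. In FHL2 libraries the order after Snhg8 was Gas5 (29.4 ± 2.52), Snhg12 (20.3 ± 3.58), Snhg1 (7.45 ± 3.87), Neat1 (3.52 ± 0.727) and Malat1 (2.87 ± 0.634), and the last 3 overlapped one with the next. The Neat1 level depends on the length chosen. Divided by its short form, it was at 60.6 ± 5.86 in control and 58.0 ± 4.58 in FHL2 libraries of day 0. At day 2 it was at 19.5 ± 5.19 and 24.4 ± 5.02. By the short form the Neat1 mean would stand first at day 0 in both lines in place of last, above Snhg8 by less than the SD. At day 2 it would stand just above Gas5 in control, and between Gas5 and Snhg12 in FHL2 libraries. As a check on the word abundant, the mean over all libraries ranked Snhg8 at 7, Gas5 at 14, Malat1 at 18, Snhg12 at 26, Snhg1 at 41 and Neat1 at 65 among 861 tested genes of the noncoding classes, with Bc1 at 1. These ranks use the longest transcript, and ranks by shorter forms of Neat1 or of the hosts were not computed.

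Of 17 other noncoding snoRNA hosts listed, 13 were tested, and their day changes were mixed. In the control line 2 were called higher and 2 lower, with a median log2 change of -0.11 against -0.14 over all genes. In the FHL2 line 3 were called higher and 1 lower, with a median of 0.11 against -0.11. Over all genes tested, 26.3% were called higher and 30.8% lower in control, and 25.8% and 30.2% in FHL2. Zfas1, a host transcribed beside Znfx1, rose with a log2 change of 0.74 in control and 1.59 in FHL2, and Snhg18 rose by 0.59 and 0.64. Snhg16 rose in the FHL2 line by 1.04, a call that the GC correction ended at 0.82. Snhg17 in the control line, at -0.93 (edgeR adjusted p = 0.0456), lost its call in 11 of the 12 fits that left out 1 library. The GC correction gave 3 hosts higher and 2 lower in control and 3 higher and 1 lower in FHL2. Of all 14435 genes, that fit called 3148 higher and 2519 lower in control, and 3055 and 2576 in FHL2.

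Zfas1 was the other noncoding host called between lines at day 2, besides Gas5. It was at 181 ± 39.7 CPM in libraries labelled FHL2-GFP and at 108 ± 10.6 in those labelled CTRL-GFP, a log2 difference of 0.75 ± 0.14 (edgeR adjusted p = 0.0178). At day 0 the difference was -0.10 (edgeR adjusted p = 1). None of the 13 hosts passed the test of the change of this difference between days. A larger Zfas1 difference at day 2 than at day 0 was therefore not shown. The Zfas1 call ended in a fit of the day 2 libraries alone, at 0.75 (edgeR adjusted p = 0.0991), and on leaving out FHL2 replicate 2 or 3 or control replicate 1 or 3 of day 2. The median day 2 difference of the 13 hosts was 0.37 against 0.01 over all genes. It was 0.31 with the GC correction and 0.15 with length added. Of the 13 hosts, 1 was called higher and none lower, where 0.720% of all genes were called higher and 1.35% lower.

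Protein-coding hosts carry snoRNAs in the introns of genes for ribosomal, nucleolar and translation proteins. Of 34 tested, 16 were called higher and 10 lower at day 2 in control, with a median log2 change of 0.12, and 16 higher and 9 lower in FHL2, with a median of 0.33. Over all genes, 26.3% were called higher and 30.8% lower in control, and 25.8% and 30.2% in FHL2. The GC correction gave 17 higher and 3 lower, and 18 higher and 4 lower. Of all 14435 genes it called 3148 higher and 2519 lower in control, and 3055 and 2576 in FHL2. Gnl3, a nucleolar GTP-binding protein, fell by 2.13 and 2.31. Wdr43, a ribosome assembly factor, fell (log2 changes of -2.18 and -2.203), and Taf1d, a factor of RNA polymerase I, fell by 3.54 and 2.45. These were named by absolute change, and the highest log2 changes in the list were 1.48 in control and 1.57 in FHL2. The Taf1d call in FHL2 ended with the GC correction, at -0.66 (edgeR adjusted p = 0.286), and that of Gnl3 in control with mean GC content, at -0.39 (edgeR adjusted p = 0.128). None of the 34 passed the test between lines at day 2, which 2.07% of all genes passed. Their median difference was 0.21, and it was 0.18 with the GC correction and 0.05 with length added.

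The proteins that bind and assemble snoRNAs also moved both ways. Of 17, 8 were called higher and 5 lower in control and 7 higher and 5 lower in FHL2. Over all genes, 26.3% were called higher and 30.8% lower in control, and 25.8% and 30.2% in FHL2. The GC correction gave 6 higher and 3 lower, and 3 higher and 1 lower. Of all 14435 genes it called 3148 higher and 2519 lower in control, and 3055 and 2576 in FHL2. Nop10, a small subunit of the H/ACA particle, rose by 1.40 and 1.59. Dkc1, the pseudouridine synthase of the same particle, fell by 2.03 and 1.80, and Nop58, a core protein of the box C/D particle, fell by 2.32 and 1.74, and none of these 4 falls kept its call with the GC correction. Pih1d1, part of a complex that assembles the particles, was higher in FHL2 than control libraries at day 2 by 0.65 (edgeR adjusted p = 0.0376), a call that ended in 11 of the 12 fits that left out 1 library. Among 10 factors of nonsense-mediated decay, 3 were higher and 3 lower in control and 2 higher and 3 lower in FHL2. Upf2, Upf3b and Smg1, which act on the helicase Upf1 of this pathway, fell by 2.27, 2.13 and 1.20 in control and by 1.77, 2.18 and 1.304 in FHL2. The highest log2 changes among the 10 factors were 1.04 in control and 0.88 in FHL2. The GC correction ended the calls of Upf3b (-0.68) and Smg1 (-0.27) in control and of Upf2 (-0.62) in FHL2, and with length added Smg1 turned to 0.20 and 0.11, neither past the test. Corrected for GC content, 1 factor was higher and 1 lower in control and 1 higher and 2 lower in FHL2.

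Of 17 proteins of nuclear speckles, the body that Malat1 sits in, 12 were called lower, 1 higher and 4 neither in each line before correction, where 30.8% of all genes were called lower in control and 30.2% in FHL2, with medians of -1.38 in control and -0.94 in FHL2. Clk1, a kinase that phosphorylates splicing factors, fell by 3.72 and 2.56, Srsf10, a splicing factor, by 2.69 and 2.53, and Pnisr by 3.52 in control. The GC correction ended the calls of Clk1 in FHL2, at -0.65 (edgeR adjusted p = 0.0714), and of Srsf10 in control, at -0.84 (edgeR adjusted p = 0.0699). With the GC correction 5 were lower and 5 higher in control, with a median of -0.20, and 6 lower and 5 higher in FHL2, with a median of -0.26. Of all 14435 genes, that fit called 2519 lower and 3148 higher in control, and 2576 and 3055 in FHL2. Of 13 paraspeckle proteins, 7 were called lower and 4 higher in control and 6 lower and 3 higher in FHL2. Over all genes, 30.8% were called lower and 26.3% higher in control, and 30.2% and 25.8% in FHL2. Tardbp fell by 1.44 and 1.29 and Cpsf6 by 1.55 and 1.87, while Rbm14, which paraspeckles need to form, rose by 1.29 and 1.40. The GC correction gave 3 lower and 6 higher in control and 4 lower and 7 higher in FHL2, with Tardbp at 0.24 and 0.22, neither past the test. Cpsf6 turned to 0.65 in control, called higher (edgeR adjusted p = 0.00755), and was at 0.10 in FHL2 (edgeR adjusted p = 0.681).

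Other long noncoding RNAs were drawn from a list of 22. Of 17 tested, 10 were called lower and 2 higher in control and 11 lower and 2 higher in FHL2, where 30.8% and 30.2% of all genes were called lower. H19, an imprinted growth-related RNA, rose by 2.90 in control and 2.92 in FHL2, from 34.9 ± 1.94 to 259.9 ± 26.3 CPM in control. Dnm3os fell by 4.22 and 3.85, and Firre by 3.40 in control. After the correction 6 were lower and 1 higher in each line. Over all 861 tested genes of the noncoding classes, 184 were lower and 41 higher in control, with a median of -0.68, and 168 lower and 50 higher in FHL2, with a median of -0.53. In each line these were smaller shares than over all genes, where 30.8% and 30.2% were called lower and 26.3% and 25.8% higher. With the GC correction 110 were lower and 48 higher in control, with a median of -0.48. In FHL2 123 were lower and 54 higher, with a median of -0.32. Of all 14435 genes, that fit called 2519 lower and 3148 higher in control, and 2576 and 3055 in FHL2.

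**Figure D5:**
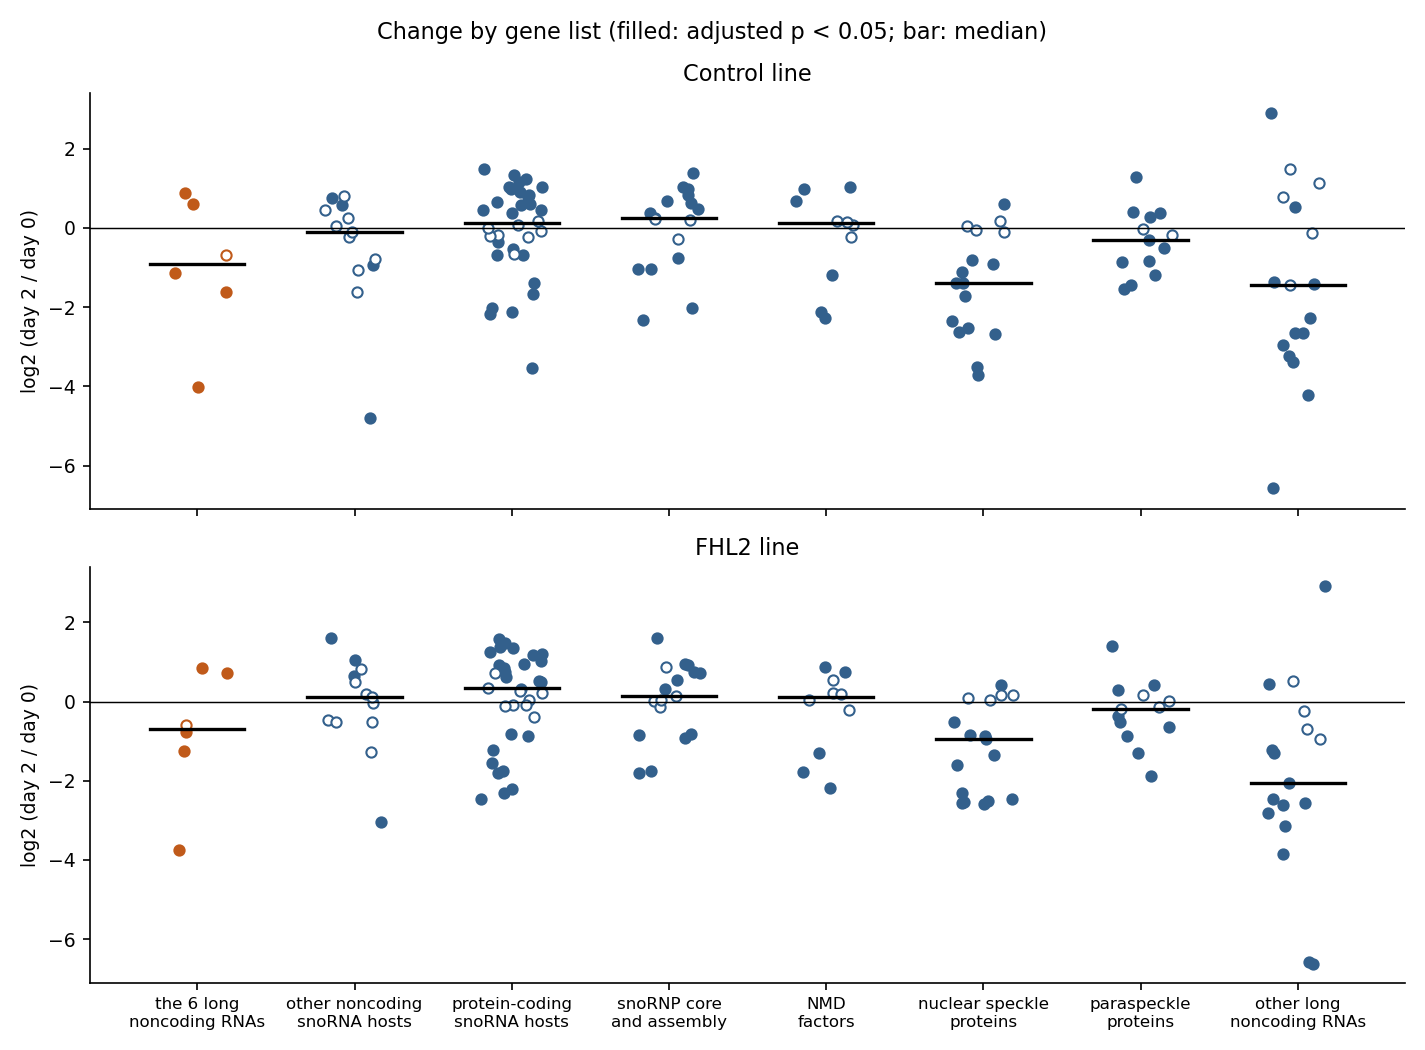
Log2 change from day 0 to day 2 without correction for the 6 RNAs (orange) and for the tested genes of 7 lists (blue) in the control line and the FHL2 line, filled where the adjusted p is under 0.05, with a bar at each median. The 6 RNAs run from -4.02 to 0.88 in the control line and from -3.75 to 0.85 in the FHL2 line. Speckle proteins and other long noncoding RNAs have the lowest medians of the 7 lists in both lines. The medians of the 6 RNAs and of paraspeckle proteins are also below 0 in both.

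Genes next to the members bear on how reads were assigned. Gas5 overlaps Zbtb37 on the opposite strand by 428 bases, and Zbtb37 was at 17.5 to 32.3 CPM in the day 0 libraries and at no more than 4.64 CPM in those of day 2. The libraries mark strand, but the counting's strand setting was not given in the sources used here. Reads of the shared bases therefore cannot be told apart. Malat1 shares 453 bases with Gm37376 on the opposite strand. Snhg1 lies between Slc3a2 and Wdr74, which rose by 0.58 and 1.12 in control and by 0.62 and 1.08 in FHL2, where Snhg1 itself was not called. With the GC correction Slc3a2 was at 0.09 and 0.14, neither past the test, and with length added Wdr74 lost its call, at 0.27 and 0.19. The annotated snoRNA genes within the 4 hosts had 0 counts in all libraries, so host and snoRNA levels could not be compared.

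The genes whose pattern over the 12 libraries was most like each member are given as a description, since all libraries share the step between days. They were sought among 9708 tested genes by Pearson correlation of log2(CPM + 1). Malat1 was nearest to Alg10b (r = 0.998), Wasl and Mtdh (both 0.995), and genes near Neat1 included Tram1 and Zfp131 (both 0.994). Gas5 was nearest to Dcn, the matrix proteoglycan decorin, and to Maoa (both 0.973). Snhg8 was nearest to Rps13, a ribosomal protein gene (0.987), with Tbcd (0.986) and Aprt (0.985) close behind. Snhg1 was nearest to Tpst1 (0.965) and Snhg12 to Cradd (0.956). Among the members themselves, Malat1 and Neat1 went together most closely (0.980), and Malat1 ran against Snhg8 (-0.931) and Snhg12 (-0.809). Snhg8 and Snhg12 correlated at 0.756, and Gas5 and Snhg1 at 0.691.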

How the data were processed

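Whole-cell RNA was sequenced from stranded poly(A) libraries, per the labels. The deposited values are raw counts per Ensembl gene in 1 table. The authors' tools, per the submitters' processing notes, include HISAT2 2.2.1 and HTSeq 0.11.0 on build GRCm39, with Trimmomatic 0.39 and FastQC 0.11.9 beside them. Annotation release and strand: not given in the sources used here. Symbols matched 52081 of 55414 identifiers.

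These counts entered edgeR 4.0.16 (R 4.3.3): filterByExpr by group, TMM scaling, 1 mean per group over all 12 libraries, and the quasi-likelihood test with Benjamini-Hochberg adjustment over 14435 genes. The test was 2-sided, with calls at an adjusted p below 0.05. The 5 comparisons were FHL2 against control at each day, day 2 against day 0 in each line, and the difference of the latter. Libraries of a group share a label, and none was a copy of another (chi-square per degree of freedom of 5.35 or more). The script was tested on simulated data.

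GC content, length and neighbours came from GENCODE M21 on GRCm38, the previous build, so no GRCm39 coordinates are given. The correction fits a smooth curve (mgcv 1.9.3) per library. Alternatives included DESeq2 1.42.0 and limma-voom 3.58.1. The correction with the mean GC content of all transcripts of a gene was chosen after seeing the data. The members and gene lists were chosen with earlier results of these data known. Named in each list and comparison were up to 3 called genes of largest absolute log2 fold change whose mean was 5 CPM or more, and for each member up to 3 genes most like it. Not every such gene is printed, and some results are not reported here.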

Additional observations from a re-analysis of the deposited data

How the results depend on the processing

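The falls of Malat1 and the rises of Snhg8 between days kept their direction and call in every fit run, in both lines, as did the fall of Neat1 in control. Whether depth limits any of the 6 was not tested. Malat1 rests on 119 to 517 counts per library at day 2, and Snhg1 and Snhg12 on 100 to 784 counts per library over both days.

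Between days, the log2 change of Gas5 reversed with the correction for GC content to 0.40 in control and 0.63 in FHL2, with length added to 0.25 and 0.42, with the mean GC content of all transcripts to 0.67 and 0.91, and with the replicate block and GC correction to 0.40 and 0.63. That of Snhg1 reversed in the same fits to 1.20 and 1.14, 1.05 and 0.90, 1.35 and 1.31, and 1.22 and 1.09, and without the 3 day 2 libraries of fewest genes to 0.025 in FHL2. Snhg12 lost its call with library totals (0.34 and 0.47) and, in control, without a filter on low counts (0.57). Neat1 in FHL2 lost its call with GC content and length (-0.17). On leaving out 1 library, Snhg12 ranged from 0.46 to 0.77 in control, with 4 calls lost, and from 0.61 to 0.88 in FHL2, with 1 lost. Snhg1 was called lower with library totals (-0.93 and -0.85) and without a filter (-0.71 and -0.62), in FHL2 also with limma-voom (-0.72) and, on leaving out 1 library, without FHL2 replicate 3 of day 2 (-1.03), and in control without the 3 libraries (-0.36). The cause was not tested for any of these.

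Between lines at day 2, Gas5 lost its call with only the groups compared (0.69) and ranged from 0.52 to 0.79 on leaving out 1 library. Uncalled differences near 0 changed sign. At day 0 these were Neat1 (0.11) and Snhg8 (-0.074) with GC content and length. At day 2 they were Malat1 with limma-voom (0.053), the replicate block (0.029) and GC content and length (0.024), Snhg1 with limma-voom (-0.0087), GC content and length (-0.069) and the block with GC correction (-0.017), and Snhg8 without the 3 libraries (0.30). For the difference of the day changes they were Malat1 (-0.29) and Snhg8 (0.28) without the 3 libraries, and Snhg1 with limma-voom (-0.021), GC content (-0.060), GC content and length (-0.15), the block with GC correction (-0.13) and mean GC content (-0.036). Leaving out 1 library gave, at day 0, -0.044 to 0.11 for Snhg1 and -0.041 to 0.044 for Snhg8. At day 2 it gave -0.34 to 0.66 for Malat1, -0.36 to 0.42 for Snhg1 and -0.23 to 0.13 for Snhg8. For the difference of changes it gave -0.034 to 0.97 for Malat1, -0.39 to 0.39 for Snhg1, -0.25 to 0.11 for Snhg8 and -0.050 to 0.29 for Snhg12.

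The number of all genes called at day 0 between lines, 7, was 69 without a filter, 93 with DESeq2, 18 with limma-voom, 246 with only the groups compared, 14 with GC content, 25 with length added, 12 with mean GC content, 135 without the 3 libraries and 1 to 10 on leaving out 1 library. At day 2, 299 became 846 without a filter, 997 with DESeq2, 39 with only the groups compared, 1606 without the 3 libraries and 146 to 404 on leaving out 1 library. For the difference of changes, 1 became 2 with upper-quartile scaling, 91 without a filter, 73 with DESeq2, 2 with GC content, 4 with length added, 243 without the 3 libraries and 0 to 6 on leaving out 1 library.

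Replicate numbers are shared between groups, but same-numbered libraries did not deviate together in all pairs (correlations of -0.16 to 0.29), so they were not treated as pairs. With the replicate block, 11 genes were called at day 0 between lines, also 11 with GC correction, and 5411 between days in control with both. The block alone changed no call of the 6 members. Group means with library totals moved by more than their SD for Neat1 (190.5 CPM), Gas5 (140.3), Snhg1 (33.7) and Snhg8 (48.6) in FHL2 libraries of day 0, Snhg8 (47.9) in control at day 0, and Snhg8 (73.9) and Snhg12 (23.3) in control at day 2.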
